A study of Homo sapiens with 4 samples.

Results

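The genes that encode the condensin complexes, the DNA topoisomerase TOP2A and the proliferation antigen Ki-67 (gene MKI67) were examined in A549, a cell line from a human lung adenocarcinoma, after knockdown of the long noncoding RNA USP2-AS1. The members were chosen by gene symbol, as SMC2, SMC4, NCAPD2, NCAPD3, NCAPG, NCAPG2, NCAPH, NCAPH2, TOP2A and MKI67, and all 10 were found among the 6828 genes of the deposited expression table. All cells were infected with lentivirus, which carried a control shRNA (shctrl) in the one group and a shRNA against USP2-AS1 (shUSP2-AS1) in the other, and RNA was taken 72 h later from 2 biological replicates per group. The study's text does not say which of its USP2-AS1 shRNAs was sequenced, so that the comparison is of a control and a knockdown without a further hairpin, a rescue or uninfected cells. The values are read counts divided by the authors' size factor of each library, called normalized read counts here. Genes that did not pass the authors' own significance filter are absent from the table, so that all members listed had passed it before they were tested here.

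Condensins are ring-shaped ATPase complexes that fold and stiffen chromosomes in preparation for mitosis. SMC2 and SMC4 form the ATPase core that both complexes share. Condensin I adds the HEAT-repeat subunits NCAPD2 and NCAPG and the kleisin NCAPH, which closes the ring, and reaches the chromosomes after the nuclear envelope has broken down. Condensin II adds the related NCAPD3, NCAPG2 and NCAPH2 and is in the nucleus throughout interphase. TOP2A passes DNA duplexes through each other and resolves the tangles between sister chromatids, and Ki-67 coats mitotic chromosomes and keeps them apart. Many genes of this kind are transcribed late in the cell cycle, from promoters that carry a cell cycle genes homology region (CHR), which MuvB complexes bind, and CCAAT boxes, which NF-Y binds.

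USP2-AS1 itself (ENSG00000245248) was covered by 24 and 22 reads in shctrl against 2 and 7 in shUSP2-AS1. Its log2 fold change was -2.39 (SE, the standard error, 0.56 and limma adjusted p = 0.000597). Both shUSP2-AS1 values lay below both shctrl values, as in 49.3% of the 6812 genes tested. Reads in the listed genes, which are part of each library's depth, ranged from 10772788 to 14120472 per library. Of the epithelial markers KRT8, KRT18, KRT19, EPCAM and CDH1, 3 of 5 were in the table. KRT8, at 87504 and 79777 in shctrl and 48220 and 49976 in shUSP2-AS1, was not called (log2 fold change -0.77). KRT18, at 30473 and 29565 in shctrl and 14145 and 14811 in shUSP2-AS1, was called lower (-1.05), and KRT19, at 3699 and 3254 in shctrl and 5689 and 5952 in shUSP2-AS1, had a change of 0.75 in the other direction and was not called. These keratins were thus detected in all libraries, whereas EPCAM and CDH1 were not listed. No leukocyte marker (0 of 5) and no endothelial marker (0 of 4) was listed. An unlisted marker may be unexpressed, or expressed without passing the authors' filter, so that its absence does not describe the cells. Of 7 fibroblast markers 2 were listed, COL1A1 and LUM, without COL1A2, COL3A1, PDGFRA, PDGFRB or DCN. The summed normalized read count of these 2 was 263 and 295 in shctrl and 555 and 634 in shUSP2-AS1, nearly all of it COL1A1. Both were called higher, with log2 fold changes of 1.05 in COL1A1 and 3.08 in LUM, against 16.1% of all genes tested. LUM rested on 2 and 1 reads in shctrl and 24 and 18 in shUSP2-AS1. The part of these markers in the results that follow was not tested.

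The promoters of the members are shown as background, and a link between their motifs and the changes described further on was not tested. RefSeq promoter windows, from 250 bases before a transcript start to 50 bases after it, were present for 9 of the 10 members, in 12 windows of GRCh38.p14. The CHR core TTTGAA, searched on both strands, was found in 8 of the 12 windows and in 8 members, against 15.2% of 35116 human promoter windows of the same length. Not all of these matches lay upstream. With the first transcribed base as 0, the core spanned the start in SMC2 and at the second start of NCAPD3 (-3 to 2). It lay after the start in NCAPG2 (35 to 40), and in SMC4 (-75 to -70) it lay in annotated exonic bases of IFT80. The CCAAT box was found in 5 windows, against 34.6% of all windows, and 4 windows held both motifs, against 5.90%. The E2F forms TTTCCCGC, TTTCGCGC, TTTGCCGC and TTTGGCGC occurred in 1 window, the second start of NCAPD3, against 3.31% of all windows. Windows of a gene with several starts can share bases, and a match of letters is not evidence of binding.

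Stretches upstream of the start are printed 5′ to 3′ on the strand of the gene for 4 members whose upstream matches lie outside annotated exons, with each CHR core and each CCAAT box in capitals (ATTGG and TTCAAA where the motif is on the other strand). They are chr4:17810934-17810978 on the plus strand for NCAPG, chr2:96335644-96335765 on the plus strand for NCAPH, chr17:40417897-40418146 on the minus strand for TOP2A and chr10:128126424-128126531 on the minus strand for MKI67.
NCAPG: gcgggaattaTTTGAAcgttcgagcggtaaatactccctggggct
NCAPH: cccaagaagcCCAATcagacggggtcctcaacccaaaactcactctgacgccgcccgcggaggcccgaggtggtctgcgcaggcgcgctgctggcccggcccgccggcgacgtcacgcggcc
TOP2A: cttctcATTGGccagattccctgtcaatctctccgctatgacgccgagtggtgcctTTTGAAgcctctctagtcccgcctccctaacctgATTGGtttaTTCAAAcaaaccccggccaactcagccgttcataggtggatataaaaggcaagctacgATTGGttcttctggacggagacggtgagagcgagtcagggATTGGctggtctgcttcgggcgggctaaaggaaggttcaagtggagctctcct
MKI67: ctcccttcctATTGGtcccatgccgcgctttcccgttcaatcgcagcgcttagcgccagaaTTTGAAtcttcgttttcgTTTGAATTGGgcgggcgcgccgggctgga
The TOP2A stretch held 2 CHR cores (2.27% of all windows hold at least as many) and 4 CCAAT boxes, all on the other strand (0.991% hold at least as many). The MKI67 stretch held 2 CHR cores, at -47 to -42 and at -29 to -24 counted from the first transcribed base as 0, and 2 CCAAT boxes, and its last CHR core shares 1 base position, -24, with a CCAAT box. NCAPG had a CHR core at -35 to -30 and no CCAAT box, and NCAPH had a CCAAT box at -112 to -108 and no CHR core. NCAPD2 also held 4 CCAAT boxes and 1 CHR core, but in bases that belong to its own annotated exons, and is not printed.

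**Figure D1:**
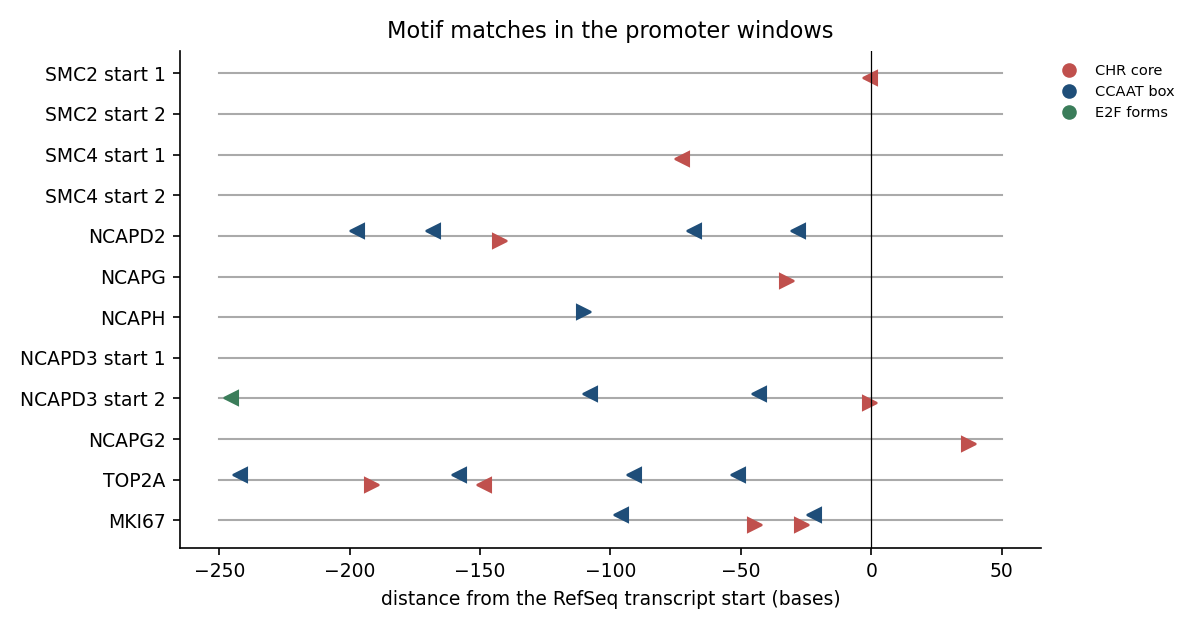
Motif matches in the 12 RefSeq promoter windows of 9 members, plotted by distance from the transcript start in bases; triangles mark matches, pointing right on the strand of the gene and left on the other strand, and NCAPH2 has no window. The CHR core lies in 8 windows, and TOP2A and NCAPD2 have 4 CCAAT boxes each.

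Knockdown of USP2-AS1 was accompanied by lower RNA of all of the condensin subunits, TOP2A and MKI67. Of the 10 members, 9 passed both thresholds of the test downwards (limma adjusted p under 0.05 and log2 fold change of -1 or less), and 0 were upregulated, against 13.5% of the 6812 genes tested called lower and 16.1% called higher. The remaining member, NCAPH2, was lower by less than that fold. The median log2 fold change was -2.22 over the members and 0.19 over all genes tested, a value that turned to -0.16 when only genes with at least 10 reads in every library were tested. In all 10 members both shUSP2-AS1 values lay below both shctrl values, against 49.3% of the genes tested. The authors' filter favours genes whose groups separate, so that this separation says little about a single gene. In RNA from whole cultures, fewer cells in a phase of the cell cycle and less RNA per cell cannot be told apart.

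SMC2 (ENSG00000136824, chr9:104094260-104141419 of GRCh38, plus strand), a subunit of the ATPase core, had normalized read counts of 1505 and 1604 in shctrl and 509 and 540 in shUSP2-AS1. The knockdown libraries retained 33.7% of the control mean, that is, a log2 change of -1.57 (SE 0.07, limma adjusted p = 1.66e-12). SMC4 (ENSG00000113810, chr3:160399274-160434954, plus strand), its partner in the core, had 2020 and 2203 in shctrl and 619 and 542 in shUSP2-AS1. SMC4 fell somewhat further, to 27.5% of the control mean. Its log2 fold change was -1.86 (SE 0.07, limma adjusted p = 3.42e-13). TRIM59 and IFT80, on the opposite strand, share 19.0% and 2.98% of the exonic bases of SMC4 in GENCODE release 44, and the strand setting of the counting is not given in the sources used here.

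The subunits of condensin I fell furthest within the complexes, and by nearly equal folds. NCAPD2 (ENSG00000010292, chr12:6493356-6531955, plus strand), the HEAT-repeat subunit of condensin I, had 4545 and 4632 in shctrl and 828 and 847 in shUSP2-AS1. Its control libraries were 5.48-fold higher than its knockdown libraries, with a log2 fold change of -2.45 (SE 0.06, limma adjusted p = 8.39e-16). NCAPG (ENSG00000109805, chr4:17810979-17844865, plus strand), the other HEAT-repeat subunit, had 758 and 839 in shctrl and 146 and 130 in shUSP2-AS1. Its knockdown values rest on 139 and 148 reads. Its log2 fold change of -2.52 (SE 0.11, limma adjusted p = 6.86e-13) was the lowest among the members and the 72nd lowest of the 6812 genes tested. The kleisin NCAPH (ENSG00000121152, chr2:96335766-96377091, plus strand) had 1144 and 1047 in shctrl and 193 and 203 in shUSP2-AS1. Its log2 fold change was -2.46 (SE 0.09, limma adjusted p = 1.24e-13). LCORL, on the opposite strand and not listed in the table, shares 33.7% of the exonic bases of NCAPG, and MRPL51 shares 5.92% of those of NCAPD2, whereas NCAPH shares none.

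The log2 fold changes of the condensin II subunits were unequal, and that of NCAPH2 was the nearest to 0 among the members. NCAPD3 (ENSG00000151503, chr11:134150113-134225454, minus strand), the counterpart of NCAPD2, had 1283 and 1357 in shctrl and 407 and 410 in shUSP2-AS1, that is, a log2 change of -1.69 (SE 0.07, limma adjusted p = 1.1e-12). NCAPG2 (ENSG00000146918, chr7:158631169-158704804, minus strand), the counterpart of NCAPG, had 2045 and 2080 in shctrl and 535 and 467 in shUSP2-AS1, that is, a log2 change of -2.04 (SE 0.07, limma adjusted p = 9.9e-14). NCAPD3 thus kept 31.0% and NCAPG2 24.3% of the control mean. NCAPH2 (ENSG00000025770, chr22:50508224-50524780, plus strand), the condensin II kleisin, had 617 and 577 in shctrl and 319 and 352 in shUSP2-AS1. It kept 56.2% of the control mean, and its log2 fold change of -0.83 (SE 0.09, limma adjusted p = 2.35e-07) did not reach the fold threshold. The 95% interval of this change, -1.03 to -0.63, includes the threshold of -1. SCO2, on the opposite strand, and the lncRNA gene ENSG00000272821, on the same strand, each share 19.2% of the exonic bases of NCAPH2, and neither is listed. The opposite-strand gene JAM3 shares 10.1% of the exonic bases of NCAPD3. The part of reads from these neighbours in the NCAPH2 and NCAPD3 counts was not tested.

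TOP2A and MKI67 fell by folds close to those of condensin I and, together with NCAPD2, had the smallest standard errors of the members. limma moderates these errors with a trend, so that they do not rank the agreement of replicates. The shctrl replicates of MKI67 differed by 0.17 in log2 value, beside 0.08 in NCAPD3. TOP2A (ENSG00000131747, chr17:40388525-40417896, minus strand), the type II topoisomerase of dividing cells, had 9870 and 10331 in shctrl and 1809 and 1860 in shUSP2-AS1. It kept 18.2% of the control mean, that is, a log2 change of -2.46 (SE 0.05, limma adjusted p = 3.31e-16). MKI67 (ENSG00000148773, chr10:128096659-128126423, minus strand) had 6933 and 7793 in shctrl and 1428 and 1377 in shUSP2-AS1. It kept 19.0%, that is, a log2 change of -2.39 (SE 0.06, limma adjusted p = 1.32e-15). The ratio of the MKI67 to the TOP2A normalized read count was 0.702 and 0.754 in shctrl and 0.79 and 0.74 in shUSP2-AS1, so that the groups overlapped in this ratio. No other annotated gene shares exonic bases with either gene, nor with SMC2 or NCAPG2.

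**Figure D2:**
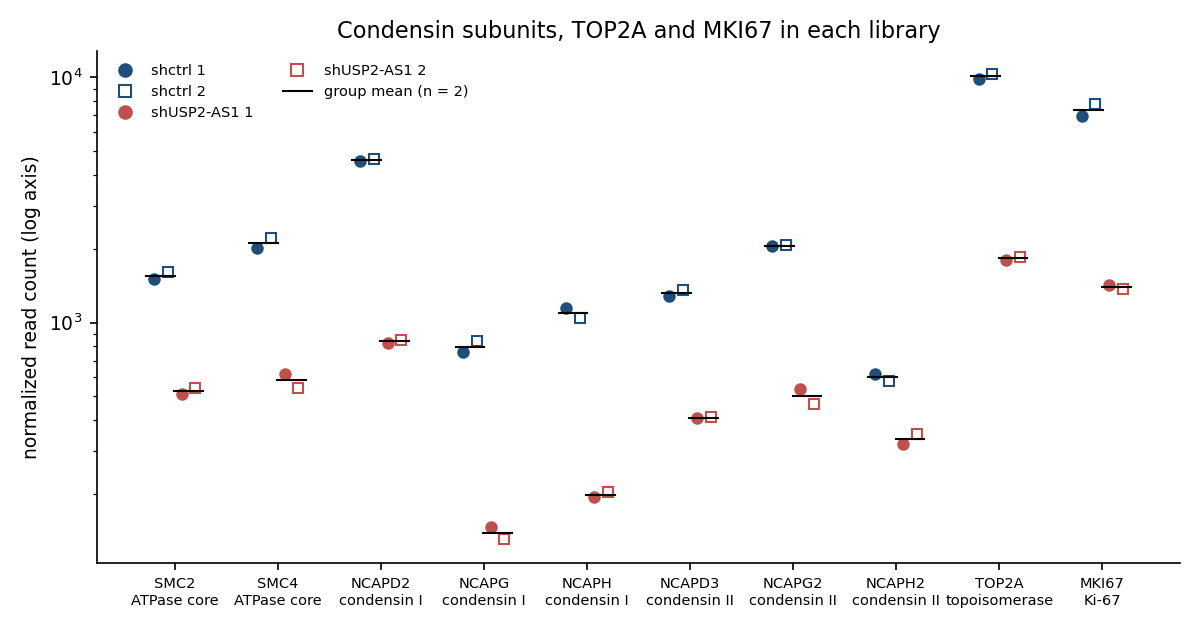
Normalized read count of each member in each library, on a log axis, with filled circles for replicate 1, open squares for replicate 2 and a line at the mean of the 2 libraries of a group. The shUSP2-AS1 libraries lie below the shctrl libraries in all 10 members, with the narrowest gap in NCAPH2 (617 and 577 against 319 and 352).

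The spread between replicates was small beside these differences. The log2 difference between the replicates of a group was at most 0.03 in NCAPD2, the tightest member, and 0.20 in NCAPG2, the widest, in shUSP2-AS1. The smallest difference between groups, that of NCAPH2, was 0.83 on the same scale, with 0.14 between its shUSP2-AS1 replicates. Over the listed genes, the chi-square between replicates was 3.75 per degree of freedom in shctrl and 3.84 in shUSP2-AS1, beyond counting noise, so that all libraries were treated as separate samples.

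**Figure D3:**
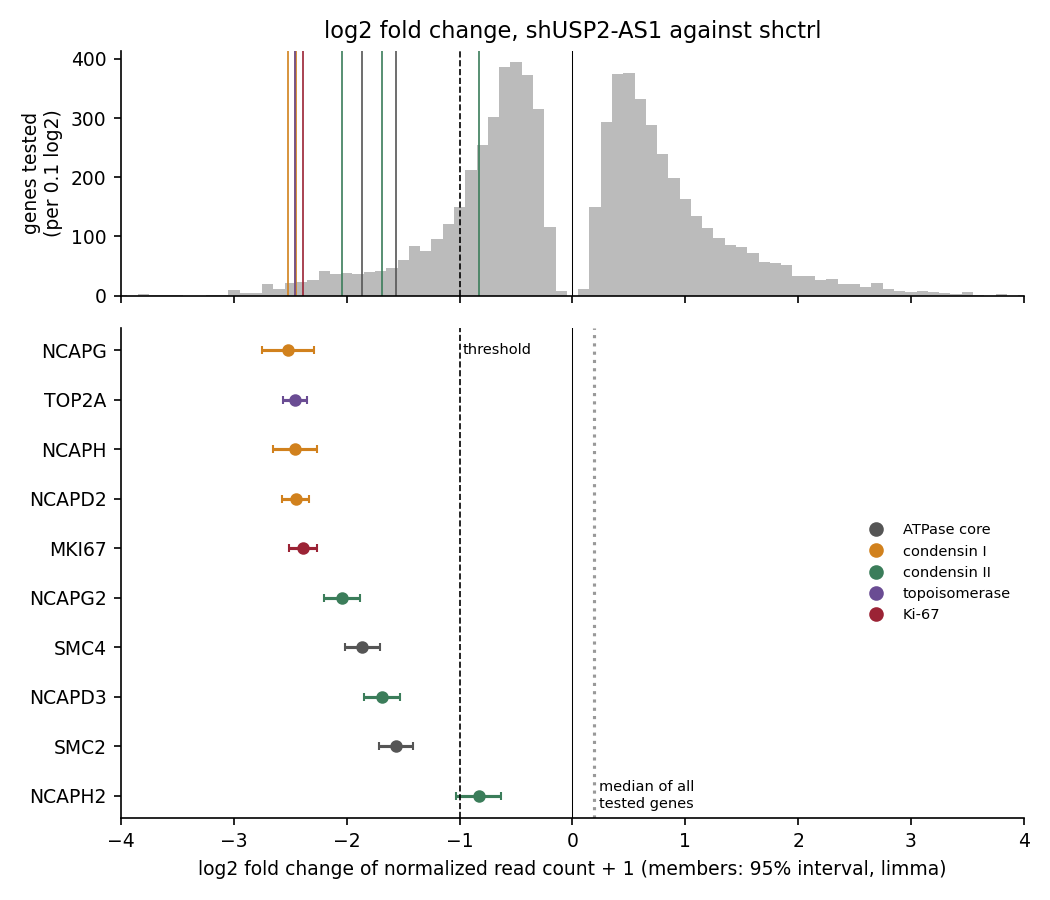
Upper panel, number of tested genes per 0.1 of log2 fold change (shUSP2-AS1 against shctrl, cut at -4 and 4), with coloured lines at the members; the gap around 0 reflects the authors' filter on the table. Lower panel, log2 fold change of each member with its 95% interval, coloured by role; the dashed line is the threshold of -1, and NCAPH2, at -0.83, is the member to its right.

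The question of whether both condensin complexes changed alike was addressed by the difference between the log2 fold changes of corresponding genes, with a 95% interval that takes the genes as independent and is not adjusted over the 5 pairs. The condensin I subunit had the lower log2 fold change in each pair. The difference was -1.63 (interval -1.90 to -1.35) for NCAPH minus NCAPH2, -0.76 (-0.96 to -0.57) for NCAPD2 minus NCAPD3 and -0.48 (-0.75 to -0.20) for NCAPG minus NCAPG2. Of these 3 pairs the kleisins thus differed most. Within the core, SMC2 fell less than SMC4 by 0.30 (0.08 to 0.51), but without the replicate 2 library of shUSP2-AS1 this difference was 0.16 (-0.09 to 0.41), an interval that includes 0. For TOP2A minus its paralog TOP2B, which non-dividing cells also use, the difference was -1.92 (-2.07 to -1.76).

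The same contrast can be read from each library as a ratio of normalized read counts per kilobase of exon. The ratio of NCAPH to NCAPH2 was 1.26 and 1.24 in shctrl and 0.414 and 0.393 in shUSP2-AS1. The ratio of NCAPD2 to NCAPD3 was 6.01 and 5.79 in shctrl and 3.45 and 3.50 in shUSP2-AS1. The ratio of NCAPG to NCAPG2 was 0.543 and 0.591 in shctrl and 0.400 and 0.409 in shUSP2-AS1. In all 3 pairs the ratio was lower in both knockdown libraries, and in the kleisins it passed from above to below 1. With the length of the canonical transcript in place of all exonic bases, the mean kleisin ratio was 1.01 in shctrl and 0.328 in shUSP2-AS1, so that the order of the kleisins in the control depends on the length used.

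**Figure D4:**
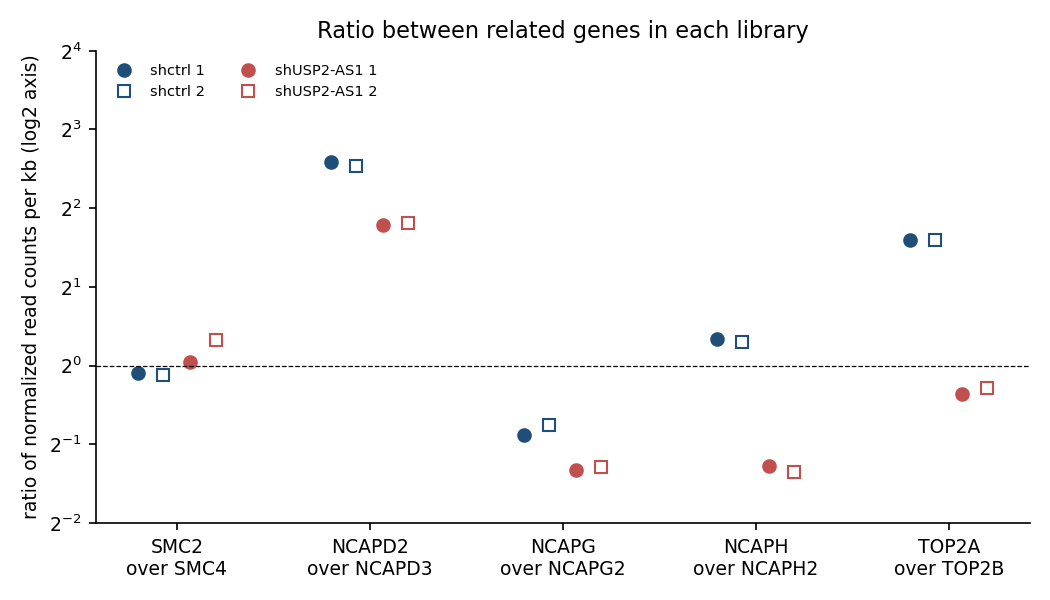
Ratio of normalized read counts per kilobase between related genes in each library, on a log2 axis with a dashed line at 1; filled circles are replicate 1 and open squares replicate 2. The kleisin ratio falls from 1.26 and 1.24 to 0.414 and 0.393, and that of TOP2A to TOP2B from 3.04 and 3.02 to 0.779 and 0.824.

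Averaged over the 3 subunits of each complex, the mean log2 value of condensin I minus that of condensin II was 0.43 and 0.44 in shctrl and -0.52 and -0.53 in shUSP2-AS1. The difference between the groups was -0.96, with a pooled SD between replicates of 0.00701. Replicate differences of opposite sign cancel in these means, such as 0.15 in NCAPG and -0.13 in NCAPH in shctrl. The SD, from 2 libraries per group, therefore understates the spread of single subunits. Per kilobase, condensin II subunits made up 34.4% and 34.2% of the summed RNA of the 6 non-SMC subunits in shctrl and 49.5% and 49.1% in shUSP2-AS1. The share of condensin II was therefore higher in the knockdown although all of its subunits were lower. With canonical transcript lengths the mean shares were 39.9% and 54.2%. Of the RNA of the kleisins, NCAPH2 was 44.2% and 44.7% in shctrl and 70.7% and 71.8% in shUSP2-AS1, per kilobase.

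The order of the members by level was set per kilobase, where values are mean ± SD of 2 libraries. In shctrl it was led by TOP2A at 1585 ± 51.1, NCAPD2 at 709 ± 9.49 and MKI67 at 573 ± 47.3. NCAPG2 followed at 290 ± 3.56, then SMC4 at 259 ± 15.8 and SMC2 at 240 ± 10.8, and these last 2 lay within about their spread of each other. With canonical transcript lengths SMC4 (413 ± 25.3) and SMC2 (262 ± 11.8) lay apart in shctrl, so that their nearness depends on the length used. At the lower end per kilobase of exon, NCAPH at 167 ± 10.5 and NCAPG at 165 ± 11.8 could not be ordered. NCAPH2 at 134 ± 6.42 and NCAPD3 at 120 ± 4.77 were lowest. With canonical transcript lengths NCAPH (182 ± 11.3), NCAPD3 (179 ± 7.10), NCAPH2 (179 ± 8.58) and NCAPG (174 ± 12.5) had overlapping spreads in shctrl, so that the order of these 4 in the control depends on the length used. In shUSP2-AS1 the levels of TOP2A (288 ± 5.73), NCAPD2 (129 ± 2.12) and MKI67 (109 ± 2.81) were again the highest, although with canonical transcript lengths MKI67 (110 ± 2.84) came after NCAPG2 (124 ± 12.0) and SMC4 (114 ± 10.6), with overlapping spreads. Per kilobase of exon, SMC2 (81.0 ± 3.36), NCAPH2 (75.2 ± 5.32), SMC4 (71.1 ± 6.67) and NCAPG2 (70.5 ± 6.83) followed with overlapping spreads. NCAPD3 (37.2 ± 0.214), NCAPH (30.3 ± 1.07) and NCAPG (28.5 ± 2.31) were lowest, the last 2 of them with overlapping spreads. With canonical transcript lengths SMC2 (88.5 ± 3.67) came after NCAPG2, SMC4 and NCAPH2 (101 ± 7.11) in shUSP2-AS1. Per kilobase of exon, NCAPH2 thus went from position 9 of the 10 members in the control to position 5 in the knockdown. The spreads given above overlap around its position in the knockdown, but not around that in the control. With canonical transcript lengths its position in the control was not resolved, and in the knockdown it was 6.

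The genes whose pattern over the 4 libraries was most like the mean of the members, by the root mean square of the difference in centred log2 values, were CDK2, a kinase of S phase entry, CENPE, a kinetochore motor, LBR, a receptor of the inner nuclear membrane, ATAD2, a chromatin ATPase, and MCM3, a subunit of the replicative helicase. Their distance from the members' mean was 0.033 to 0.0357 and their log2 fold changes were -2.06 to -1.98. CDK2 had 694 and 688 in shctrl and 174 and 163 in shUSP2-AS1. Of the members themselves, NCAPG2 was nearest to the mean (0.0632) and NCAPH2 farthest (0.603). With 4 libraries in 2 groups this measure chiefly ranks genes by their fold change.

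Regulators of condensin and partners in compaction were lower in the same comparison. Of 14 such genes 11 were listed, of which 10 were called lower and 0 higher, against 13.5% and 16.1% of all genes tested. Their median log2 fold change was -2.25, beside 0.19 over all genes tested. This list and those that follow were chosen with earlier results of these data known, so that their counts are descriptions and not tests. Among the kinases that phosphorylate condensin, AURKB had 1355 and 1268 in shctrl and 224 and 221 in shUSP2-AS1, that is, a log2 change of -2.55 (SE 0.08, limma adjusted p = 3.1e-14). PLK1, which acts on condensin II at the onset of mitosis, had 2964 and 2962 in shctrl and 511 and 536 in shUSP2-AS1, that is, a log2 change of -2.50. CDK1, the mitotic kinase, changed by -2.40 and its cyclins CCNA2 and CCNB1 by -2.42 and -2.25, and the kinase TTK by -2.21. These 6 values lie between -2.55 and -2.21, beside -2.52 to -2.45 for the condensin I subunits. The chromosome motors KIF4A, which binds condensin I, and KIF22 changed by -2.31 and -2.04. RCC1, the chromatin-bound exchange factor of Ran, changed by -1.33, and CSNK2A1, a catalytic subunit of casein kinase, by -1.19. AKAP8, an anchoring protein that recruits condensin to chromatin, had a log2 fold change of -0.66 and was not called, and MCPH1, NUSAP1 and CSNK2A2 were not listed.

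Other SMC proteins and other topoisomerases had log2 fold changes nearer to 0 than those of all members but NCAPH2. Of 6 SMC family genes outside condensin 5 were listed, with a median log2 fold change of -0.78 beside 0.19 over all genes tested. Of these 5, 2 were called lower, against 13.5% of all genes tested. The 2 called were the cohesin subunits SMC1A, with 4569 and 4750 in shctrl and 2218 and 2229 in shUSP2-AS1, and SMC3, with 1881 and 1978 in shctrl and 903 and 969 in shUSP2-AS1. Their log2 fold changes were -1.07 (SE 0.05, limma adjusted p = 3.45e-12) and -1.04 (SE 0.06, limma adjusted p = 8.87e-11). SMCHD1, which acts in X inactivation, had a log2 fold change of -0.78, and the DNA repair subunits SMC5 and SMC6 had -0.52 and -0.49, none of them called. Of 5 topoisomerase genes other than TOP2A 2 were listed and 0 called by limma. Both had an adjusted p of less than 0.05, as had nearly all genes of this preselected table (3362 lower and 3449 higher of 6812). TOP2B had 3082 and 3245 in shctrl and 2201 and 2140 in shUSP2-AS1, that is, a log2 change of -0.54 (adjusted p = 4.87e-08, limma). The mitochondrial enzyme TOP1MT had a log2 fold change of -0.59. TOP2B and TOP1MT each had both shUSP2-AS1 values below both shctrl values, as had 49.3% of all genes tested.

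Partners of Ki-67 and proteins of the layer that it forms around chromosomes were called in 2 of the 12 listed genes, of 15 in the list, with a median log2 fold change of -0.70 beside 0.19 over all genes tested. With 13.5% of all tested genes called lower, this count is near the background. CDCA2, the mitotic phosphatase subunit also known as Repo-Man, had 871 and 888 in shctrl and 220 and 183 in shUSP2-AS1, that is, a log2 change of -2.13 (SE 0.10, limma adjusted p = 3.2e-12). NCL, the nucleolar protein nucleolin, had 17493 and 17055 in shctrl and 7048 and 7242 in shUSP2-AS1, that is, a log2 change of -1.27 (SE 0.05, limma adjusted p = 1.38e-13). The value of CDCA2 lies between those of MKI67 and NCAPG2, and that of NCL between those of SMC2 and NCAPH2. The 5 others with the lowest p, none of them called, are nucleolar or chromatin proteins with smaller log2 fold changes, of -0.95 in NPM1, -0.93 in PES1, -0.80 in BOP1, -0.80 in WDR12 and -0.61 in CBX1. The 5 remaining genes had log2 fold changes of -0.46 to 0.41.

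Of the proteins that bind the CHR and CCAAT elements or regulate them, 10 of 16 were listed, of which 7 were called lower and 0 higher. Over all genes tested, 13.5% were called lower and 16.1% higher. The median log2 fold change of the 10 was -1.13, beside 0.19 over all genes tested. FOXM1, the activator of genes for mitosis, had 1725 and 1812 in shctrl and 395 and 409 in shUSP2-AS1, that is, a log2 change of -2.13 (SE 0.07, limma adjusted p = 3.78e-14). MYBL2, which joins MuvB to activate such genes, had 2621 and 2788 in shctrl and 616 and 634 in shUSP2-AS1, that is, a log2 change of -2.11 (SE 0.06, limma adjusted p = 1.06e-14). No other gene of the list had a log2 fold change below that of SMC2, -1.57. The MuvB core subunits LIN9 and LIN52 changed by -1.42 and -1.05, the pocket protein RBL1 by -1.29, the E2F partner TFDP2 by -1.17 and the NF-Y subunit NFYA by -1.08. NFYC, RBBP4 and E2F4 had log2 fold changes of -0.83, -0.82 and -0.74 and were not called, and LIN37, LIN54, RBL2, TFDP1, E2F5 and NFYB were not listed.

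**Figure D5:**
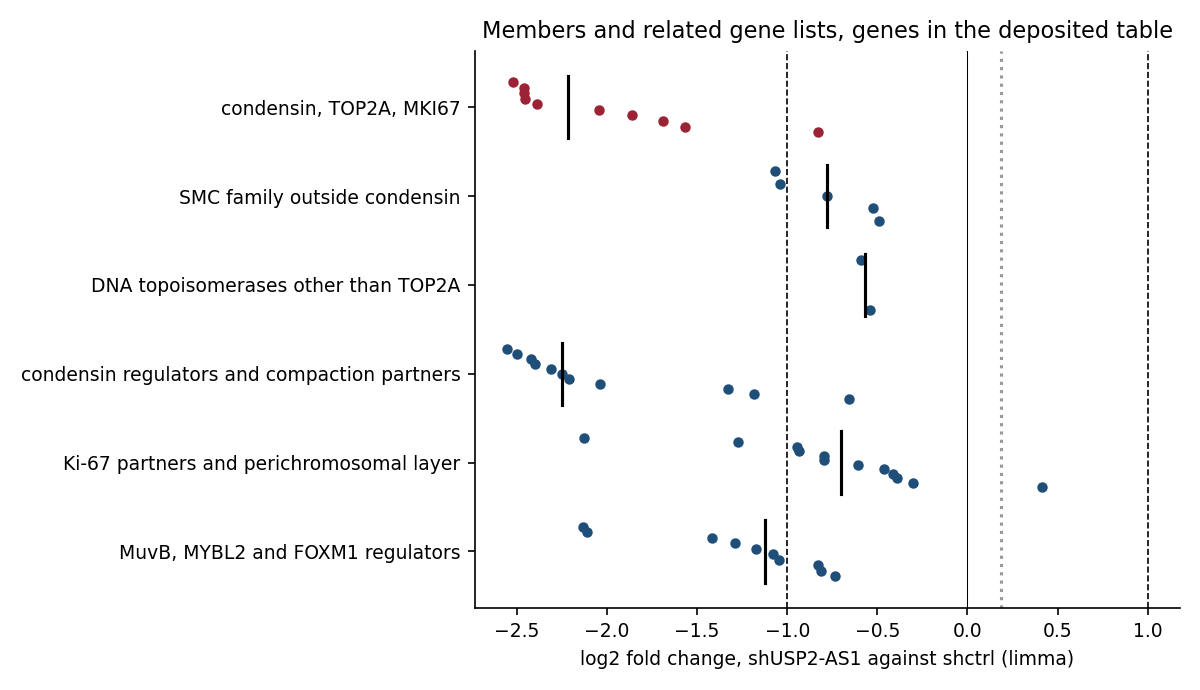
Log2 fold change (shUSP2-AS1 against shctrl, limma) of the 10 members and of the listed genes of 5 related lists, a point per gene, with a bar at the median of each list. Dashed lines mark the thresholds of -1 and 1 and the dotted line the median of all tested genes, 0.19; the condensin regulators (median -2.25) lie where the members do (median -2.22), and the other lists lie nearer 0.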

How the data were processed

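RNA was extracted 72 h after infection, and poly(A) libraries were sequenced, 2 per group. Per the labels, the submitters' processing notes name HISAT2 2.0.5, featureCounts 1.5.0-p3, DESeq2 1.20.0 and hg38. The deposited values are a signal, the read count of a gene over the size factor of its library, by the authors. The group means and the results of the comparison by the authors (log2 fold change, p-values with and without adjustment) in the table were not used. The table holds genes that passed the authors' adjusted p. All values (100%) were whole reads, within 0.01 reads, times 0.966 and 1.10 (shctrl) or 1.05 and 0.88 (shUSP2-AS1). Its columns headed scr (scramble) were taken as shctrl and those headed sh216 as shUSP2-AS1, with the replicate number as headed. The 6812 genes whose mean reached 10 were fitted on log2(value + 1) with limma 3.58.1 (R 4.3.3), lmFit and eBayes with a trend. Fold changes are on this scale, which understates those of low genes. Because the table was preselected, its adjusted p-values, by the Benjamini-Hochberg method, run smaller than over every expressed gene. edgeR 4.0.16 and DESeq2 1.42.0 were run on recovered reads. Methods were tested on simulated data. Members and lists were chosen with earlier results of these data known. Named are all members, the called genes of each list, up to 5 others with the lowest p, and the 5 most alike genes. Overlaps are from GENCODE release 44, promoters from RefSeq.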

Additional observations from a re-analysis of the deposited data

How the results depend on the processing

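Over 14 alternatives, all 140 values of the 10 members kept their direction and their side of the threshold, and 9 members were called lower in each, or 10 with no fold threshold. The alternatives were other scalings, filters and pseudocount, edgeR and DESeq2, limma treat against 2-fold, a replicate block and each library left out. The filters, limma treat and the replicate block cannot change a member's log2 fold change, so that only its p-value could move there. The median log2 fold change of the members was -2.33 with RLE and -2.16 with upper quartile scaling, and -2.28 to -2.15 with each library left out. RLE moved the median of all genes from 0.19 to 0.07 and the calls over all genes from 922 lower and 1098 higher to 1143 and 929. Testing only the 6583 genes with at least 10 reads in every library turned the median of all genes to -0.16 and left that of the members at -2.22. Genes called lower numbered 523 (541 higher) against a fold change of 2, 3362 (3449 higher) with no fold threshold and 882 to 955 with each library left out. The difference between SMC2 and SMC4 lay between 0.16 and 0.43 with each library left out, and its interval included 0 without shUSP2-AS1 replicate 2. Canonical transcript lengths, added after the data were examined, gave condensin II shares of 39.9% in shctrl and 54.2% in shUSP2-AS1. Replicate numbers are not stated to pair the samples (correlation of the replicate differences -0.04 over 6812 genes). A fit blocked on the replicate number called 922 genes and 9 members lower, with log2 fold changes that the block cannot change. Only 2 libraries per group and a preselected table limit these results.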
